A study of Homo sapiens with 19 samples.

Results

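HEK293 is an established human line derived from embryonic kidney and transformed with adenovirus DNA. Its spliced RNA was compared with that of A375, a melanoma line, and HUES66, an embryonic stem cell line. The comparison used 3 of the 19 libraries of a series on isoforms of the splicing factor RBFOX2: the HEK293, A375 total RNA and HUES66 wild-type libraries, 1 of each. All 3 were ribosomal RNA-depleted total RNA from cells with no treatment in their labels, with synthetic spike-in RNA added. HEK293 and A375 were grown in DMEM with serum, and HUES66 in StemFlex medium on Geltrex. The description of the HUES66 wild-type library carries the name of the control libraries, with no doxycycline or time. The other 16 libraries were 2 fractions of A375 (nuclear and cytoplasmic RNA) and 14 of HUES66 treated with doxycycline, and they served only as a second reading of values found in the 3.

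Each library was given as splice junctions and the reads across them, so a gene's level here is its number of reads on annotated junctions, and genes without introns, SOX2 among them, give no reads. The 3 libraries held 9605334 (HEK293), 8412005 (A375) and 27937149 (HUES66) junction reads, and each was thinned at random to 8412005. Of the thinned HEK293 reads, 93.6% fell on junctions of a single gene. With 1 library per line there was no test: intervals are 95% exact or Wilson intervals that cover counting error only, and neither separate cultures nor clones of a line could be compared. The descriptions of the 3 libraries begin with different codes, whose meaning is not given, so among these 3 cell line and code cannot be told apart. A HUES66 24 hr control whose description begins with the code of HEK293 gave 266 genes higher and 473 lower in place of the wild type, by the rule that follows. A gene, in the text below, is called higher or lower in HEK293 where its ratio to each of the other lines was at least 4-fold in the same direction, over genes with at least 20 thinned reads in at least 1 line.

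Cell lines carry the expression of the cells they came from, overlaid by what transformation and culture select. Transcription factors of the PAX, SIM and HOX families set regional identity in the embryo, keratins form the intermediate filaments of epithelia, and adenovirus proteins bind the cell cycle regulators RB and p53. The primary products of many genes are also spliced in line-specific ways, through cassette exons, alternative splice sites and alternative first exons.

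KRT17, PAX6 and SIM2, the genes set to mark HEK293, were all found in it and nearly absent elsewhere. KRT17 (keratin 17, chr17:41619441-41624842, minus strand, GRCh38) had 3837 thinned reads in HEK293, 4 in A375 and 1 in HUES66, a ratio to A375 of 959 (interval 374 to 3522). In CPM, reads per 1000000 junction reads of the unthinned library, it stood at 455 (441 to 468) in HEK293, between 0.15 and 0.48 in the 3 A375 libraries and no higher than 0.29 in the 15 of HUES66. All 7 annotated KRT17 junctions were read, 413 to 767 times each. KRT17 belongs to a family of near-identical genes and pseudogenes, so reads shared with them are uncertain, and its closest relatives KRT14 and KRT16 had 2 and 3 reads in HEK293.

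PAX6 (chr11:31784779-31818062, minus strand), a master regulator of eye and forebrain development, had 305 reads in HEK293 and 0 in both other lines. Against a floor of 3 reads, which a count of 0 allows, that is at least 101.7-fold higher, and the exact interval of either ratio begins at 82.2. Its reads lay on junctions along the whole gene. At the alternative exon 5a, which changes the DNA-binding paired domain, 3 reads entered the exon and 3 left it, against 31 that skipped it. SIM2 (chr21:36699133-36749917, plus strand), a bHLH-PAS transcription factor of the midline and of tubule formation, had 195 reads against 0 and 0, spread over 10 junctions with 6 to 27 reads each, and was at least 65.0-fold higher (exact interval from 52.4). In the other 16 libraries the highest count was 4 reads for PAX6 and 2 for SIM2.

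Of 12750 genes compared, 282 (2.21%) were called higher in HEK293 than in both other lines and 448 (3.51%) lower. Against A375 alone 1052 (8.25%) were higher and 1400 (11.0%) lower, and against HUES66 alone 1093 (8.57%) were higher and 1227 (9.62%) lower. The median log2 ratio of all genes was 0.10 to A375 and 0.12 to HUES66, and TMM factors moved both by over 0.1, to -0.004 and -0.05. The exact interval of both ratios excluded 1 for all 282 higher genes, but the calling rule fixed this in advance. A gene called higher has at least 20 reads in HEK293 and at least 4-fold fewer in each other line. A gene called lower can meet the read minimum through 1 other line, and both intervals excluded 1 for 386 of the 448. These counts therefore do not compare how reliable the calls are. Protein-coding genes made up 255 of the 282 higher and 404 of the 448 lower genes, against 12109 of all 12750.

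**Figure D1:**
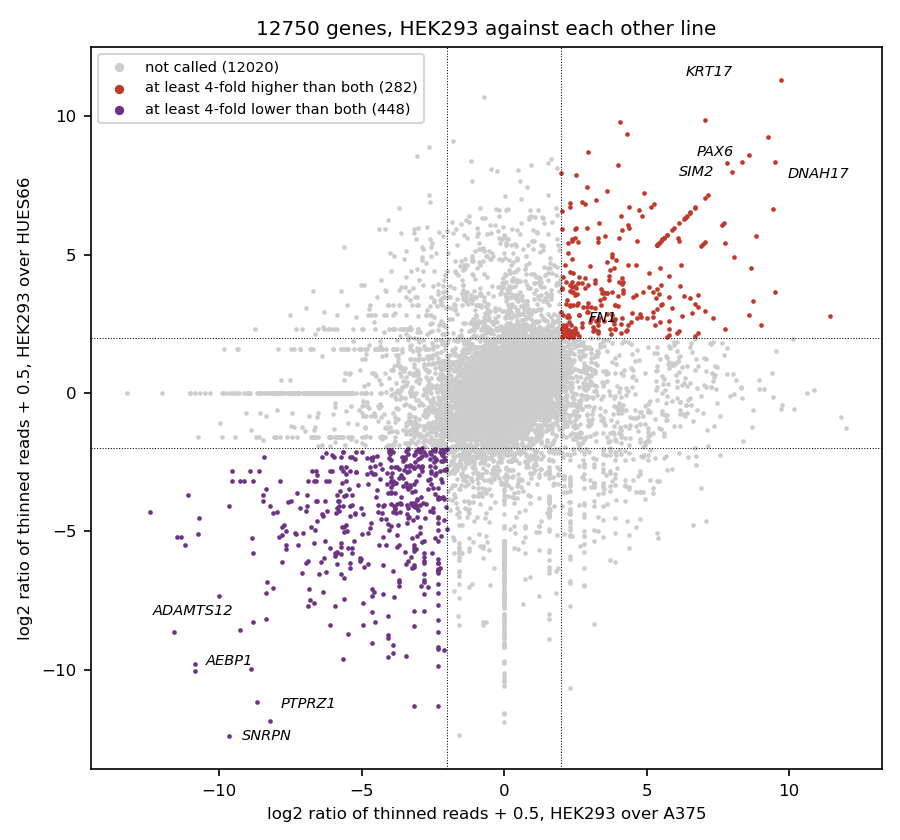
Each point is 1 of 12750 genes: log2 ratio of thinned reads plus 0.5 of HEK293 over A375 (horizontal) and over HUES66 (vertical), with dotted lines at 4-fold. The 282 genes at upper right are higher and the 448 at lower left are lower in HEK293 than in both lines. The straight rows and diagonals of points are genes with 0 or a few reads in a line.

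In the 16 libraries that the calls did not use, HEK293 lay above the highest CPM for all 282 higher genes and below the lowest CPM for 409 of the 448 lower genes. Over all 12750 genes HEK293 lay above all 16 for 23.0% and below all 16 for 12.7%. These libraries come from the same A375 and HUES66 lines, so they repeat the lines and not the comparison. Closest to the 4-fold limit were PALLD inside it, with 958, 238 and 126 reads in HEK293, A375 and HUES66, and DNAH12 outside it, with 45, 11 and 2. On the lower side PREX1 lay just inside with 133, 990 and 535 reads and IQSEC2 just outside with 27, 109 and 176.

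DNAH17, an axonemal dynein heavy chain of motile cilia and sperm tails, had 1807 reads in HEK293, 2 in A375 and 5 in HUES66. It reached 217 CPM in HEK293 against 0.24 to 0.36 in the A375 libraries and 0.61 to 1.78 in those of HUES66. ALDH1A2, which makes retinoic acid in the embryo, had 790 reads against 3 and 2. Both were therefore well read in HEK293 and close to the floor in the other lines. These sums are not corrected for the number of junctions in a gene, so they do not rank transcripts by abundance.

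CGA, the common alpha subunit of the gonadotropins and thyrotropin, had 126 reads in HEK293 and 0 in A375 and HUES66, and none in any of the other 16 libraries. SAMD11 had 162 reads and CNNM1, a membrane protein of the family of magnesium transporters, had 51, each against 0 and 0. ULBP1, a stress-induced ligand of the NKG2D receptor of natural killer cells, had 66 reads against 0 and 0. For CNNM1 the HUES66 libraries were not all at 0: they ranged from 0.30 to 1.80 CPM with a median of 0.65, below the 6.04 CPM of HEK293.

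DCDC2, a doublecortin-domain protein of cilia and microtubules, had 348 reads in HEK293, 0 in A375 and 3 in HUES66. LGR5, a Wnt-pathway receptor that marks stem cells of several epithelia, had 227 reads against 0 and 4. ARHGAP20, a GTPase-activating protein, had 100 reads against 0 and 1. Each of these genes was above every other library of the series in CPM.

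The CDKN2A locus on chromosome 9 was read from both of its promoters in HEK293. CDKN2A encodes the cell cycle inhibitors p16INK4a and p14ARF from different first exons spliced to a shared exon, and had 468 reads in HEK293, 3 in A375 and 0 in HUES66. The junction from the p14ARF first exon (intron chr9:21971209-21994138) had 86 reads in HEK293 and none in any other library compared. The junction from the p16INK4a first exon (intron chr9:21971209-21974677) had 36 reads, against 1 in A375, 0 in HUES66 and at most 12 in the other libraries. The antisense gene CDKN2B-AS1, which starts beside the p14ARF exon on the other strand, had 105 reads against 0 and 1, and none in the other 16 libraries.

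**Figure D2:**
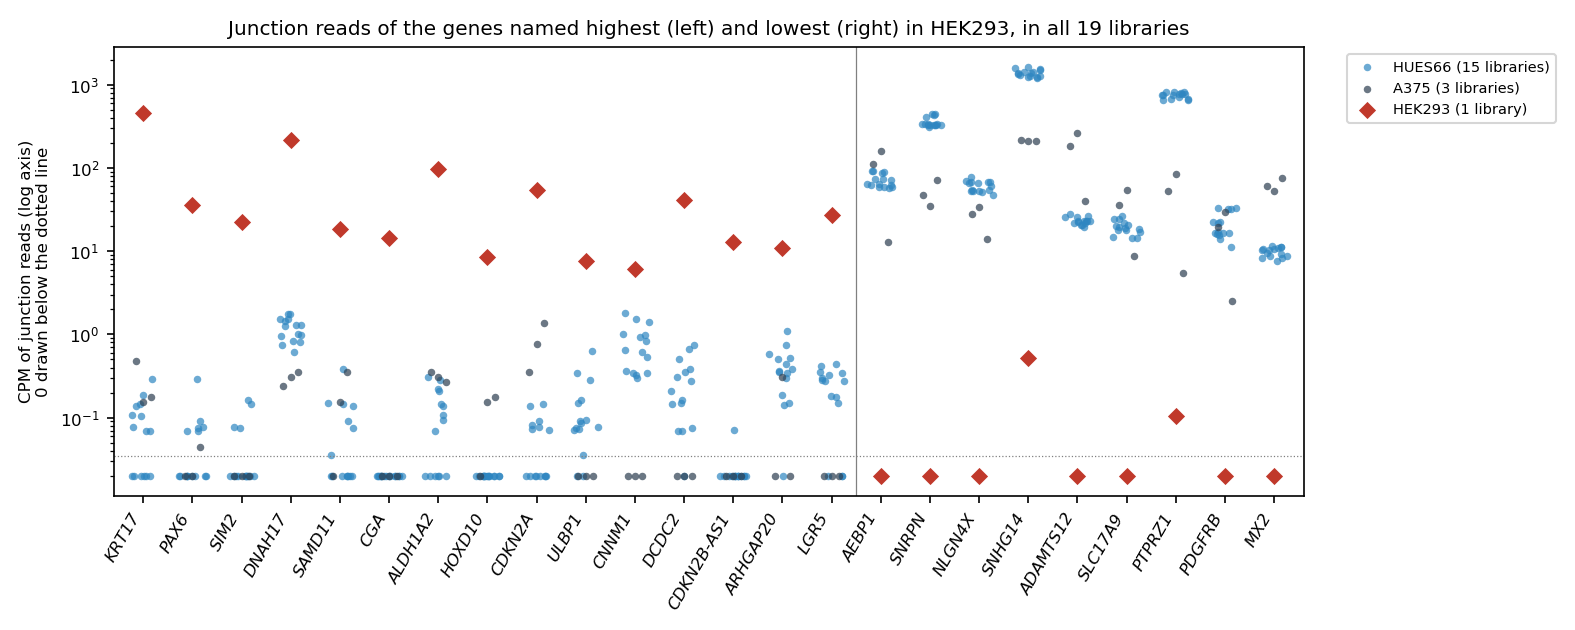
CPM of junction reads (log axis, 0 drawn below the dotted line) for the 15 genes named highest and 9 named lowest, with 1 diamond for HEK293 and dots for the 3 A375 and 15 HUES66 libraries. HEK293 stands alone above the other lines at left, with KRT17 at 455 CPM, and at or near 0 at right.

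The genes called lowest included several that were silent in HEK293 and well read in both other lines. AEBP1, a collagen-binding protein of the extracellular matrix, had 0 reads in HEK293, 925 in A375 and 527 in HUES66. ADAMTS12, a secreted metalloprotease, had 0 against 1543 and 198. Against the floor of 3 reads AEBP1 was thus at least 308-fold lower than in A375 and at least 176-fold lower than in HUES66, and the exact intervals of the ratios reached up to 0.0040 and 0.0070. The lowest A375 library had 12.8 CPM of it.

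Surface proteins were also among them. NLGN4X, a postsynaptic adhesion protein, had 0 reads in HEK293, 238 in A375 and 509 in HUES66. PTPRZ1, a receptor tyrosine phosphatase of glia and neural precursors, had 1 read against 448 and 5550. PDGFRB, the beta receptor of platelet-derived growth factor, had 0 reads against 163 and 145. In the 15 HUES66 libraries PTPRZ1 ranged from 651 to 818 CPM and in the 3 of A375 from 5.42 to 85.6, against 0.10 CPM in HEK293. SLC17A9, a vesicular nucleotide transporter, had 0 reads against 305 and 189, and MX2, an interferon-induced antiviral GTPase, had 0 against 517 and 80.

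SNRPN and SNHG14, neighbours in the imprinted region of chromosome 15 that is linked to Prader-Willi syndrome, were both called lower. Both are normally transcribed from the paternal chromosome alone. SNRPN (chr15:24823637-24978723) had 0 reads in HEK293, 402 in A375 and 2719 in HUES66. SNHG14 (chr15:24978583-25419462), the host transcript of small nucleolar RNAs, had 4 reads against 1827 and 10275, 457-fold lower than in A375. Across libraries SNHG14 stood at 0.52 CPM in HEK293, at 208 to 217 in A375 and at 1187 to 1612 in HUES66. Of the genes further along, chosen after their values were seen, UBE3A had 960 reads in HEK293 against 1118 and 1043, and ATP10A had 1 against 417 and 30. SNRPN shares its transcripts with SNURF and overlaps SNHG14, so reads of these genes may be divided differently under another annotation.

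Lists of genes known for a tissue or process were read against the shares of all genes called, 2.21% higher and 3.51% lower. The lists are short, and 1 or 2 calls in a list of this size say little. A member that passed the read minimum through HEK293 alone could be called higher but not lower. Among regulators of kidney development, 2 of 8 genes with enough reads were called higher and none lower. The median log2 ratio of these 8 was 1.49 to A375 and 3.45 to HUES66, against 0.10 and 0.12 over all genes. GATA3, needed for the nephric duct, had 48 reads in HEK293, 8 in A375 and 3 in HUES66. HOXD11, which patterns the metanephric kidney, had 41 against 0 and 0. LHX1, an early kidney regulator, had 42 against 15 and 3, too close to A375 to be called. GATA3, HOXD11 and LHX1 passed the read minimum through HEK293 alone, so the counts and medians of this list cannot be weighed against those of all genes.

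Other genes of the list lay on either side. By 4-fold, 3 of the 8 were higher and 1 lower than in A375, and 5 were higher and 2 lower than in HUES66. SALL1 had 11 reads in HEK293 against 21 and 48, and GDNF, the growth factor that draws out the ureteric bud, had 2 against 20 and 1. The member with most reads lies on chromosome 8 and is not named. PAX2 had 11 reads in HEK293 against 4 and 0, PAX8 had 0 against 7 and 4, SIX2 had 1 against 0 and 0, and WT1 had 25 against 49 and 0. In all, 8 of the 16 listed genes did not reach 20 reads in any line. Some kidney regulators were thus read in HEK293, while PAX8 was not detectable at this depth.

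Of 6 genes of the differentiated kidney with enough reads 1 was called higher and 2 lower. LRP2 (megalin), the endocytic receptor of the proximal tubule, had 192 reads in HEK293, 0 in A375 and 27 in HUES66. With the HUES66 24 hr control of replicate 2 in place of the wild type, the log2 ratio of LRP2 to the nearer line was 2.05. PODXL, a sialomucin of podocytes and of stem cells, had 82 reads against 385 and 2996, and SCNN1A, a sodium channel subunit, had 3 against 51 and 576. PODXL was not lower than in the cytoplasmic A375 library, which stood at 7.07 CPM against 9.89 in HEK293. For SCNN1A that library had 1.52 CPM against 0.31 in HEK293, and the log2 ratio of thinned reads was -1.72, under 4-fold. UMOD, AQP2, SLC12A3, SLC22A6, SLC34A1 and CDH16, which mark mature nephron segments, were at 0 reads in HEK293.

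HOX genes set position along the body axis, and 12 of the 39 listed had enough reads. These 12 summed to 306 reads in HEK293, 251 in A375 and 0 in HUES66. All 12 were at least 4-fold higher than in HUES66. Each passed the read minimum through HEK293 or A375, so that count was largely fixed by the minimum. Against both lines 4 were called, all of the posterior groups, and all 4 passed the minimum through HEK293 alone. HOXD10 had 71 reads in HEK293 and HOXA9 had 24, each against 0 and 0, besides HOXD11. HOXB9 had 21 against 4 and 0, and was not called against cytoplasmic A375 RNA, where its log2 ratio was 0.50. In the other direction HOXC10 had 4 reads in HEK293 and 66 in A375.

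Of 31 regulators of the eye, brain and body segments listed, 13 had enough reads. Of these 6 were called higher and none lower, where 2.21% of all genes were higher. PAX6, SIM2, SIM1, PAX7 and IRX5 passed the read minimum through HEK293 alone, so the list cannot be weighed against that share. The median log2 ratio of these 13 genes was 2.75 to A375 and 5.55 to HUES66. PAX6 and SIM2 are in this list and were known to mark HEK293 when it was written. Without them 4 of 11 were called higher, with a median log2 ratio of 1.83 to A375 and 5.40 to HUES66. SIM1, the relative of SIM2 in the hypothalamus and kidney tubules, had 63 reads in HEK293 against 0 and 1. PAX7, of the neural tube and muscle precursors, had 23 against 0 and 0. TFAP2A, a regulator of neural crest and surface ectoderm, had 621 against 81 and 1, and IRX5 had 23 against 3 and 1.

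Of PAX3, which also marks neural crest and melanocytes, HEK293 and A375 had similar counts, 132 and 95, and HUES66 had 0. OTX2 of the anterior neural plate had 0 reads in HEK293 and A375 and 59 in HUES66. Of the 13 genes 9 were at least 4-fold higher in HEK293 than in HUES66 and 1, OTX2, was lower. ZIC2, a regulator of forebrain and neural tube, was read in all 3 lines, with 90, 25 and 263 reads in HEK293, A375 and HUES66.

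Of 16 neuronal genes none was called higher and 4 lower, against 2.21% and 3.51% of all genes, with a median log2 ratio of 0.44 to A375 and -1.39 to HUES66. INA (alpha-internexin), a neuronal intermediate filament, had 68 reads in HEK293, 0 in A375 and 29 in HUES66. NCAM1, a neural adhesion molecule, had 477 reads against 159 and 106. L1CAM, a neural adhesion molecule too, had 38 against 4145 and 271, and RBFOX3 (NeuN) had 0 against 15 and 168. SYT1, of the synaptic vesicle, had 8 against 79 and 321 and had a log2 ratio of -1.11 to the nearer line with cytoplasmic A375 RNA.

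Adrenal and chromaffin markers were at or near 0. Among 14 genes the HEK293 library held 1 read each of CYP11A1 and CYP21A2 and none of the others, among them NR5A1, STAR, TH, DBH and PNMT. CYP11A1, the only member with enough reads in any line, had 7 in A375 and 21 in HUES66.

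**Figure D3:**
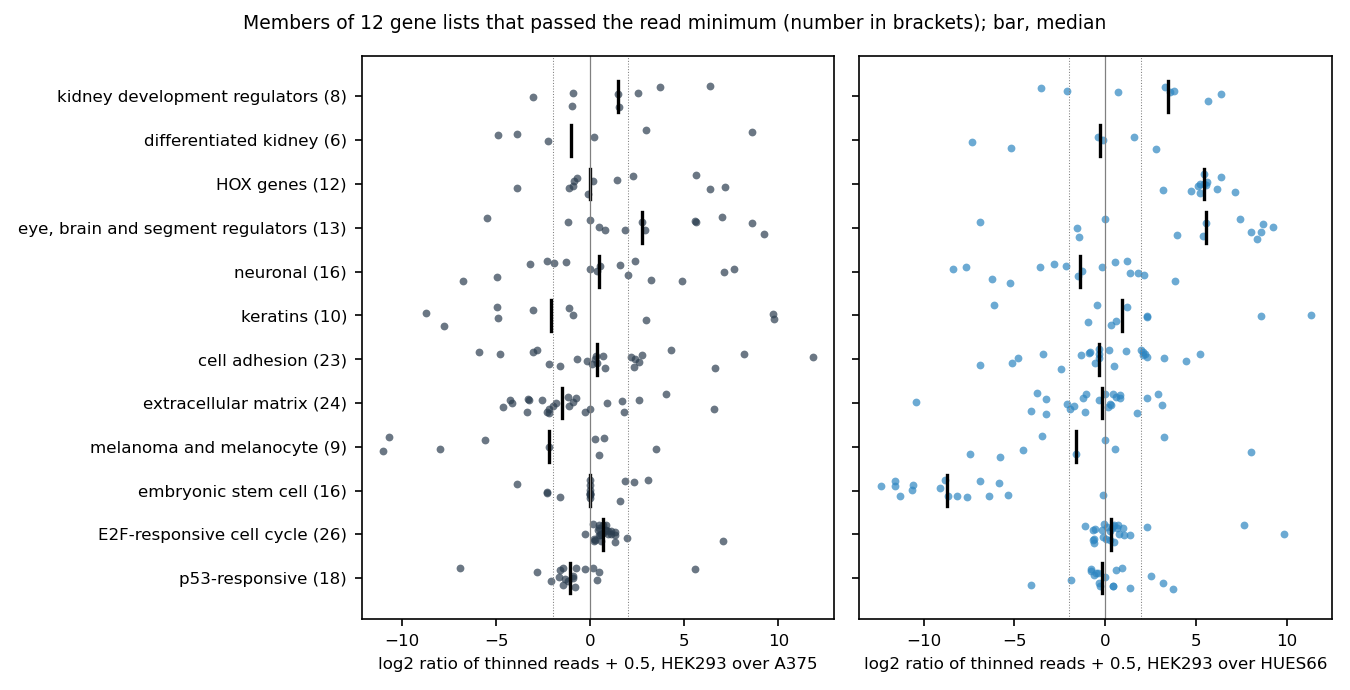
Log2 ratios of thinned reads plus 0.5 for the members of 12 lists that passed the read minimum, HEK293 over A375 (left) and over HUES66 (right), with a bar at each median and dotted lines at 4-fold. HOX and eye, brain and segment regulators lie to the right against HUES66 (medians 5.43 and 5.55), and the embryonic stem cell genes far to the left (-8.73). The HOX genes passed the read minimum through HEK293 or A375 and the stem cell genes mainly through HUES66, which bears on these medians.

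Of the embryonic stem cell genes 15 of 16 were at least 4-fold lower in HEK293 than in HUES66, against 9.62% of all genes. The 16 summed to 405 reads in HEK293, 88 in A375 and 34099 in HUES66, so they passed the read minimum mainly through HUES66. A member that passed through HUES66 alone could be lower than HUES66 but not 4-fold higher, so the count cannot be weighed against that share. POU5F1 (OCT4) had 5 reads in HEK293 and in A375 against 8514 in HUES66, and LIN28A had 0 and 1 against 2619. LIN28B, a let-7 inhibitor related to LIN28A, was the exception with 250 reads in HEK293, 29 in A375 and 275 in HUES66. The 3 calls against both lines were ZFP42, with 0 reads against 7 and 277, and DPPA2 and ESRG, each with 0 against 2 in A375.

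Of 9 melanocyte genes 2 were called lower and none higher. SOX10, the neural crest factor of melanoma, had 0 reads in HEK293, 844 in A375 and 11 in HUES66, and EDNRB, the endothelin receptor B, had 1 against 73 and 258. MIA, a secreted melanoma protein, had 1035 reads in A375 and 0 in HEK293 and HUES66. Other members of the list were highest in HUES66: PMEL, a melanosome protein, had 7 reads in HEK293, 4 in A375 and 418 in HUES66, and GPM6B had 39, 3 and 439. A375 itself lacked the pigment gene TYR and MLANA at this depth.

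Of 10 keratins KRT17 was called higher and KRT7 lower, the latter with 0 reads in HEK293, 111 in A375 and 34 in HUES66. KRT8 had 3667 reads against 474 and 2427, KRT18, its partner in simple epithelia, 1719 against 3754 and 3268, and KRT19 434 against 0 and 592. KRT81 and KRT80, at 1081 and 1585 reads in A375, had 2 and 190 in HEK293. KRT8 and KRT19 of HEK293 were thus closer in level to HUES66 than to A375.

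Adhesion genes lay on both sides, with 3 of 23 called higher and none lower. FN1 (fibronectin), a matrix and adhesion glycoprotein, had 16237 reads in HEK293, 2703 in A375 and 1722 in HUES66, 6.01-fold (5.77 to 6.26) and 9.43-fold (8.97 to 9.91) more. It reached 1933 CPM, with 19.8 to 533 in the A375 libraries and 165 to 298 in those of HUES66. The mesenchymal cadherins were also called: CDH11 with 247 reads against 12 and 50, and CDH6, first known from kidney, with 56 against 12 and 12.

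EPCAM and CDH1, of epithelial adhesion, were between the other lines in HEK293. EPCAM had 1814 reads in HEK293, 0 in A375 and 3280 in HUES66, and CDH1 (E-cadherin) had 49, 0 and 1357. OCLN, of tight junctions, was above both with 425 reads against 1 and 304. The mesenchymal markers CDH2 (2297, 1889 and 535) and VIM (10618, 17612 and 2683) were closer to A375. Genes of epithelial and of mesenchymal cells were therefore both read in the same HEK293 library. In bulk RNA fewer cells of a type and less RNA per cell cannot be told apart.

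Of 24 matrix genes 1 was called higher and 2 lower against both lines, and 11 were at least 4-fold lower than A375, with a median log2 ratio of -1.51 to A375 and -0.17 to HUES66. HSPG2 (perlecan) had 175 reads in HEK293, 3332 in A375 and 2957 in HUES66. Its log2 ratio to the nearer line was -0.80 when cytoplasmic A375 RNA, with 35.7 CPM against 20.7 in HEK293, took the place of total RNA. LOX, which cross-links collagen, had 48 reads against 0 and 6. POSTN had 1 read against 7 and 20. Among the basement membrane genes COL4A1 was similar (3438, 4179 and 2898 reads), while LAMB1 had 1538 reads against 14977 in A375 and 1366 in HUES66.

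The cell cycle and damage lists, which bear on RB and p53, gave 1 call each. Of 26 E2F-responsive genes only CDKN2A was called, and the median log2 ratio of the list was 0.68 to A375 and 0.32 to HUES66. MCM3, a replication licensing factor, had 4719 reads in HEK293, 1239 in A375 and 4888 in HUES66. CDK1 had 2285 against 912 and 1417. Of 18 p53-responsive genes only GDF15 was called, lower, with 0 reads against 60 and 8, and the median log2 ratio was -1.07 to A375 and -0.15 to HUES66. CDKN1A (p21) had 180 reads against 488 and 13, so the order of the lines differed between members. The MDM2 gene, whose product degrades p53, had 1801 reads against 3389 and 959.

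Of 20 genes of cytosolic nucleic acid sensing 1 was called, lower: AIM2, a DNA sensor, with 0 reads against 67 and 16. CGAS, the sensor that makes cGAMP, had 16 reads in HEK293, 0 in A375 and 43 in HUES66, and its partner STING1 (TMEM173 in the annotation) had 37, 168 and 3. OAS1 and OAS2, interferon-induced activators of RNase L, had 1 and 0 reads in HEK293 and 79 and 91 in A375. TBK1, a kinase of the interferon response, had similar counts in the 3 lines, with 859, 935 and 653 reads.

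HEK293 is widely used as a host for cloned receptors and channels. Of 27 such genes listed 13 had enough reads and 2 were called higher. LPAR1, a lysophosphatidic acid receptor, had 69 reads against 13 and 12, and CXCR4, a chemokine receptor, had 22 against 0 and 2. SCN9A, the sodium channel Nav1.7, had 201 reads in HEK293, 1 in A375 and 117 in HUES66. CHRM3, the muscarinic receptor M3, had 29 against 7 and 17, and PIEZO1, a mechanically gated channel, 1126 against 2368 and 851.

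Splicing regulators were the list closest to the study's subject. Of 33 genes 1 was called higher, RBM20, and 1 lower, RBFOX3. RBM20, a splicing repressor known from heart muscle, had 145 reads in HEK293, 5 in A375 and 1 in HUES66, a ratio to A375 of 29 (12.1 to 90.7). RBFOX2 itself had 803 reads against 658 and 1044. ESRP2, of epithelial splicing, had 201 reads in HEK293, 2 in A375 and 354 in HUES66. MBNL1 had 418 against 1111 and 122, and MBNL2 155 against 387 and 12, so muscleblind genes were intermediate in HEK293.

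Cassette exons were compared where at least 20 inclusion plus skipping reads were present in each line, which held for 10231 of 37862 candidates. Inclusion is the percent of inclusion reads among inclusion plus skipping reads. An exon was called where HEK293 differed from each other line by at least 20 points in the same direction and its interval overlapped neither. By this rule 7 exons (0.0684%) were included more in HEK293 and 21 (0.205%) less. The sets depend on depth and draw: unthinned reads gave 15 and 32, and another draw gave 7 and 20, of which 4 and 15 were the same exons. Of the 10231 exons 6011 varied in at least 1 line, so the called exons were 0.466% of those. In the 16 libraries not used by the rule, HEK293 lay beyond every value for 27 of the 28 exons, the exception being an exon of the noncoding SNHG1. The same share over all exons tested was not counted. Median length was 76 nt for exons included more and 75 nt for those included less, against 107 nt over all exons. A length divisible by 3 was found for 5 of the 7 and 15 of the 21, against 43.3% of all exons tested. The sets are small, and MDM4 and SNHG8 each give overlapping exons among the 21. Neither measure was taken over the varying exons alone, so neither is read as a feature of the called ones.

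Sequences are given for the alternative splice sites of PARP2 and TOR1AIP1 and for some short exons in coding transcripts. The changed bases there are short enough to be read in full. They are taken from GENCODE 29 transcripts (GRCh38), 5′ to 3′ on the transcript strand. The pick does not follow the size of the difference. PICALM, CD46, SRSF10 and USO1 differed less from the nearer line than PPP6R2 and PLD3, whose sequences are not given. Capitals mark the alternative bases, and lower case the 20 bases of transcript on either side.
PARP2 chr14:20345088-20345126 (plus strand), bases between the donors: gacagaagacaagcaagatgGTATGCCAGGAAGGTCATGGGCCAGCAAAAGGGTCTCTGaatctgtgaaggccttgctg
TOR1AIP1 chr1:179889310-179889312 (plus strand), bases between the acceptors: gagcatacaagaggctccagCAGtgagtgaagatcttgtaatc
DNM2 chr19:10808569-10808580 (plus strand), exon: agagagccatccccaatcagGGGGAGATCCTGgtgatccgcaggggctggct
MDM4 chr1:204537430-204537497 (plus strand), exon: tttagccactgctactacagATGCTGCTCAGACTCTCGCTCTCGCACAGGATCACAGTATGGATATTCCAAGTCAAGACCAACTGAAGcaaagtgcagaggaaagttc
TIA1 chr2:70229059-70229091 (minus strand), exon: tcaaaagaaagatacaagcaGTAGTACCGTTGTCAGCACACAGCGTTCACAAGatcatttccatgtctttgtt
PICALM chr11:85978070-85978093 (minus strand), exon: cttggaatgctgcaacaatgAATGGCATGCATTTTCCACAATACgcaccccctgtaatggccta
CD46 chr1:207767779-207767823 (plus strand), exon: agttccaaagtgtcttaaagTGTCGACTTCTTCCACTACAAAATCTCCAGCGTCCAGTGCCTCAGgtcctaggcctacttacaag
SRSF10 chr1:23971573-23971623 (minus strand), exon: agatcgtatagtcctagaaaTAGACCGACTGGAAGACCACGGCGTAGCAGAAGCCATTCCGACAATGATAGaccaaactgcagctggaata
USO1 chr4:75795336-75795356 (plus strand), exon: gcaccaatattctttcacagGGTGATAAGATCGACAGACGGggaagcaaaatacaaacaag

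PARP2, an enzyme that marks DNA breaks with poly(ADP-ribose), was spliced in HEK293 mostly from a donor 39 nt downstream of the one used in the other lines. In the unthinned HEK293 library 76 reads used the downstream donor and 12 the upstream one, 86.4% (77.7 to 92.0). In the 3 A375 libraries the downstream donor took 0% to 6.25% and in the 15 HUES66 libraries 0% to 3.33%. The groups did not overlap, and the transcript read in HEK293 contained the 39 bases in capitals, a whole number of codons.

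TOR1AIP1, a protein of the inner nuclear membrane (LAP1), differed by a single codon. Its tandem acceptor offers 2 sites 3 nt apart, and the upstream site adds the CAG in capitals. In HEK293 62 of 64 reads used the upstream site, 96.9% (89.3 to 99.1). In A375 it took 17.0% to 26.5%, and in HUES66 0% in all 15 libraries, with 22 to 92 reads in each on the downstream site. HEK293 thus used almost only the form that was absent from HUES66. Whether these sites differ in DNA sequence between the lines was not tested.

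Of the exons included less in HEK293, that of DNM2, a GTPase that cuts vesicles from membranes, is the only called exon among 72 tested in genes fixed as neuronal or microexon genes. The 12 nt exon was included in 17 of 99 thinned reads in HEK293, 17.2% (11 to 25.8), against 72.5% in A375 and 88.2% in HUES66. Over the other libraries, unthinned, the 3 of A375 spanned 64.5% to 72.5% and the 15 of HUES66 83.6% to 97.5%. The lists of epithelial and of muscleblind-responsive exons, with 43 and 47 exons tested, held no called exon.

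MDM4, an inhibitor of p53 related to MDM2, had an exon of 68 nt included in 6 of 29 reads in HEK293, 20.7% (9.85 to 38.4). The exon, whose skipping shifts the frame and gives the short form MDM4-S, was included at 77.6% in A375 and 82.5% in HUES66. HUES66 libraries spanned a wide range, from 42.4% to 94.2% with a median of 79.2%, all above HEK293. A second called MDM4 exon of 39 nt ends at the same base and shares its skipping reads, so it is not a separate event.

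Among membrane traffic and surface proteins, the 24 nt PICALM exon was included at 46.4% (36.2 to 57.0) in HEK293, against 71.8% and 83.1%. PICALM is a clathrin assembly protein. The 45 nt exon of CD46, a complement regulator, lies in its serine, threonine and proline-rich stretch and was included at 26.4% (19 to 35.3), against 79.5% in A375 and 48.7% in HUES66. In the other direction the 21 nt exon of USO1, a tethering factor of the Golgi, was included at 30.2% (19.5 to 43.5) against 1.06% and 7.94%. MGRN1, a ubiquitin ligase, had a 45 nt exon included at 61.3% (43.8 to 76.3) against 18.4% and 23.4%. The USO1 values of other libraries reached 2.17% in A375 and 13.4% in HUES66.

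RNA-binding and chromatin proteins were also represented. The 33 nt exon of TIA1, a splicing and stress granule protein, was included at 56.5% (36.8 to 74.4) in HEK293, against 93.3% and 88.0%. The 51 nt exon of SRSF10, a splicing factor, was included at 65.1% (57.7 to 71.8), against 89.2% and 96.6%. An exon of 264 nt in CHD1, a chromatin remodeller, was included at 42.1% (31.6 to 53.3) against 7.69% and 15.2%, though the HUES66 libraries reached 32.9%. An exon of 312 nt in TRA2A, another splicing factor, was at 42.1% (33.1 to 51.5) against 16.3% and 19.4%.

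The other exons named by size were PPP6R2 (81 nt, 31.2% in HEK293 against 66.7% in each other line), PLD3 (269 nt, 54.3% against 95.2% and 87.9%), SHMT1 (117 nt, 41.2% against 72.9% and 82.1%), PNISR (54 nt, 51.2% against 81.8% and 89.3%) and MINK1 (111 nt, 69.6% against 100% and 100%). PPP6R2 is a subunit of protein phosphatase 6, and SHMT1 an enzyme of folate metabolism. On the higher side were DGUOK (148 nt, 67.9% against 43.4% and 37.0%) and DPH3 (75 nt, 84.6% against 63.0% and 64.3%). With a thinned draw of cytoplasmic A375 RNA in place of total RNA the difference from the nearer line was -7.60 points for SHMT1, -6.85 for PNISR and 5.36 for DPH3. In all reads of the cytoplasmic library inclusion was 56.4% for SHMT1, 72.2% for PNISR and 73.3% for DPH3, against 43.1%, 51.5% and 84.1% in all reads of HEK293. In nuclear A375 RNA inclusion was 64.9% for SHMT1, 74.0% for PNISR and 82.4% for DPH3, so DPH3 was close to HEK293 there. The exons nearest the 20-point limit were DPH3 inside it at 20.3 points from the nearer line and KDM5B outside it at -19.9.

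**Figure D4:**
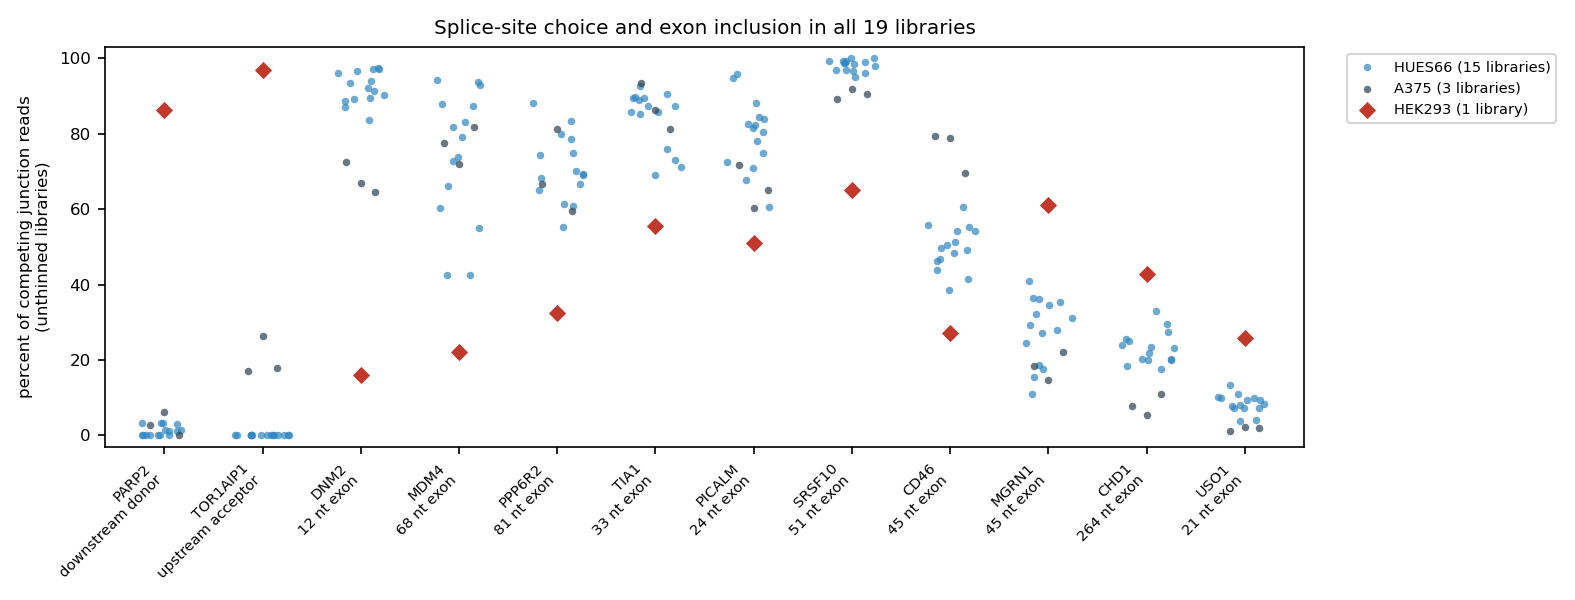
Percent of competing junction reads in each unthinned library for 2 alternative splice sites and 10 cassette exons: 1 diamond for HEK293, dots for 3 A375 and 15 HUES66 libraries. HEK293 lies outside both other lines in every column, above 80% for PARP2 and TOR1AIP1 where the others lie under 30%.

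Junction use is the share of a splice site's reads taken by each of the annotated junctions that compete for it. It was compared for 41082 pairs of a junction and a shared site. A junction can therefore count at its donor and again at its acceptor. By the same 20-point rule 94 pairs (0.229%) were used more in HEK293 than in both other lines and 88 (0.214%) less, in 92 genes in all. For 165 of the 182 the HEK293 value lay beyond all 16 other libraries. Of the 182, 78 left the first exon of at least 1 annotated transcript. Neither share was counted over all 41082 pairs, so neither is read as a feature of the called ones.

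The largest differences among junctions that leave an annotated first exon were as follows, and not all of them are a choice of first exon. In UGGT1, a folding sensor of the endoplasmic reticulum, the junction of intron chr2:128091597-128097428 took 21 of 27 reads in HEK293, 77.8%, against 34.4% in A375 and 17.2% in HUES66. Other libraries came closer, up to 48.4% in A375 and 52.3% in HUES66, against 74.3% in unthinned HEK293. In the actin and endosome protein MICALL1 the junction from a downstream first exon (chr22:37907479-37911951) took 10 of 26 reads, 38.5%, against 0% and 0%. It was listed in 13 of the 16 other libraries, and in unthinned reads it took 33.3% in HEK293, at most 2.87% in A375 and at most 17.2% in HUES66, with a median of 4.76%. In TNPO2, a nuclear import receptor, chr19:12720991-12722476 took 63.8% against 26.7% and 15.4%. In the deubiquitinase gene USP8, chr15:50424655-50439008 took 67.5% against 30.4% and 28.9%.

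FAT1, a giant protocadherin, used the junction chr4:186709846-186726353 in HEK293 for 45 of 50 reads (90.0%), against 55.1% in A375 and 48.3% in HUES66. Its other junction, chr4:186709846-186723663, correspondingly took 10.0% against 44.9% and 51.7%. In SPG7, a mitochondrial protease, chr16:89532637-89544647 took 20.7% against 60% and 77.8%. The site shared there is the donor, so its rivals leave the same exon and differ in acceptor. In the noncoding SNHG8 the junction chr4:118278793-118279388 took 80.3% against 44.4% and 22.9%. It is the skipping junction of the SNHG8 cassette exons called as included less, so it is that same choice. Paired junctions of 1 site are a single choice counted from both sides.

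DROSHA, the nuclear enzyme that cuts primary miRNAs, was read almost only with an exon of 76 nt that the other lines often skipped. In thinned reads the exon was included at 100% in HEK293, with 66 inclusion and 0 skipping reads, against 71.7% in A375 and 58.2% in HUES66. In the unthinned HEK293 library 45 reads entered the exon (intron chr5:31531526-31531989) and 1 skipped it, 97.8% (88.7 to 99.6). By the same measure A375 libraries ranged from 46.3% to 61.5% and HUES66 libraries from 30% to 59.4%. The DROSHA junctions called for use are this same choice.

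For AP2M1, the medium subunit of the clathrin adaptor AP-2, the calls in both directions rest on how junctions are listed. Its 6 nt exon is shorter than the 8 nt that the shortest listed read overhang spans, and a junction on either side of it could be missing from a table. Unthinned, HEK293 listed 342 reads into the exon and 0 out of it, where A375 and HUES66 listed 0 into it and 157 and 1698 out of it. The junction into the exon was at 0 in 9 of the 16 other libraries and at 555 to 892 reads in the remaining 7. The AP2M1 values therefore do not show inclusion to differ.

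Junctions with at least 10 thinned reads in HEK293 and 0 in both other lines numbered 549, against 2397 seen in A375 alone and 1870 in HUES66 alone. Of the 549, 331 are annotated and 273 of these belong to genes called higher. In the 16 other libraries 156 of the 549 were at 0 as well. Outside the X chromosome the most read were an unannotated junction at chr14:49585304-49586629 with 3071 reads and another at chr21:8218677-8251439 with 667 reads, yet each was listed in 2 of the other libraries, with up to 6570 and 1387 reads. KRT17 gave the next 4, with 464 to 619 reads. A junction of 0 reads may hold up to 3.

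The genes called higher were unevenly spread over chromosomes. Chromosome 6 held 51 of the 282, 7.68% of its 664 genes compared, against 2.21% of all genes, and CGA, DCDC2 and ULBP1 are among them. Over 474 chromosome 6 genes with at least 20 reads in every line the median log2 ratio was 1.16 to A375 and 0.77 to HUES66. Each 20 Mb window of the chromosome had a positive median against either line, from 0.43 to 1.02 against HUES66. Against the single libraries, on a log2(CPM + 0.05) scale, the chromosome 6 median was 1.16 to 1.31 for A375 and 0.71 to 0.78 for HUES66.

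Several other chromosomes also had positive medians against both lines. Chromosomes 21 and 22 had medians of 0.89 and 0.78 to A375 and 0.37 and 0.40 to HUES66, and A375 itself was below HUES66 there, at -0.60 and -0.39. Chromosome 17 had 0.33 to A375 and 0.42 to HUES66, chromosome 18 had 0.43 and 0.49, and chromosome X had 0.28 and 0.47. On chromosome 1 the genes from 220 to 240 Mb had medians of 0.36 to A375 and 1.01 to HUES66, while the 26 genes beyond 240 Mb had -1.50 and -0.65. Without chromosome 6, 231 genes were called higher and 435 lower.

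**Figure D5:**
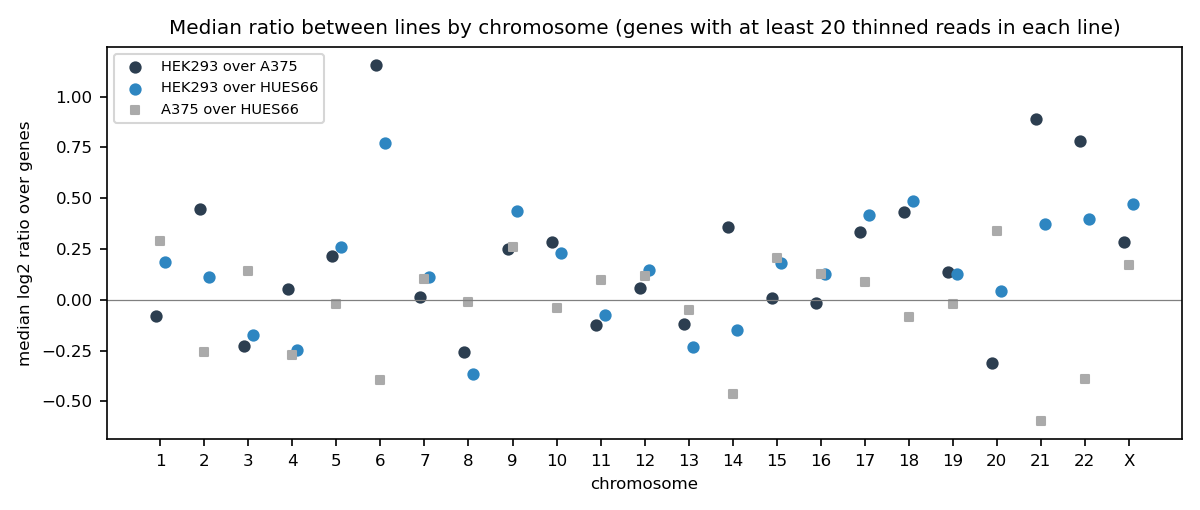
Median log2 ratio over genes with at least 20 thinned reads in each line, by chromosome, for HEK293 over A375, HEK293 over HUES66 and A375 over HUES66. Chromosome 6 has the highest medians for HEK293 against both lines, 1.16 and 0.77.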

How the data were processed

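The authors deposited 1 junction table per library, which lists raw counts of reads per splice junction without normalization. STAR 2.7.1, SAMtools 1.9 and build hg38 are named in the submitters' processing notes, with no roles, and the filters behind the tables are not given in the sources used here. The 9 deposited comparison tables, with 69 per-library columns, were not used here. Sequence names in the A375 tables covered scaffolds and spike-ins, those of HEK293 and HUES66 only the main chromosomes, and spike-in reads were left out. Junctions were matched to GENCODE 29 (file names of HEK293 and HUES66 carry another release), and reads on junctions of 1 gene were summed per gene (93.6% to 94.5% of thinned reads). Depth was 9605334 (HEK293), 8412005 (A375) and 27937149 (HUES66) reads, and 6499183 to 22344622 in the others. Reads were thinned without replacement, and ratios used a pseudocount of 0.5. Cassette exons (up to 1000 nt) used the mean of the 2 inclusion junctions against the most read skipping junction. Intervals are 95% (exact for ratios and CPM, Wilson for shares), and a count of 0 was taken to allow 3. Grouping followed the labels.

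Named genes were KRT17, PAX6, SIM2, the 15 higher genes with the largest ratio to the higher other line and at least 50 reads, the 10 lower genes with the lowest ratio and at least 50 reads in each other line, and called or defining list members (some further members were added for context after their values were seen). Exons were the 8 with the largest difference in each direction, and junctions the 6 first-exon ones with the largest difference in each direction and the 6 seen in HEK293 alone with most reads. PICALM, CD46, SRSF10, PARP2 and TOR1AIP1 and the CDKN2A junctions were added after their values were seen. XIST, Y-linked genes, pseudogenes and chromosome 8 were left out of naming, and a few further genes are not reported here. Members and lists were chosen with earlier results of these data known. Scripts were tested on simulated data. Alternatives were depth scaling, TMM factors (edgeR 4.0.16 in R 4.3.3), pseudocounts, thresholds, read minimums, the HUES66 and A375 library used, and the random draw. Python 3.11.15, numpy 2.4.6, pandas 2.3.3 and scipy 1.17.1 were used.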

Additional observations from a re-analysis of the deposited data

How the results depend on the processing

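No paired analysis was possible because each line had 1 library and no test was made, and for the same reason no replicate could be left out. Counts of genes higher and lower stayed within 1.5 times of 282 and 448 with unthinned CPM (270 and 442), TMM factors (249 and 483), the HUES66 24 hr control whose description begins with the code of HEK293 (266 and 473), cytoplasmic A375 RNA (404 and 401) and another draw (274 and 468, of which 243 and 418 were the same genes), and 10 draws gave 269 to 282 and 445 to 468. They were 943 and 1015 at 2-fold, 128 and 255 at 8-fold, 119 and 235 with a minimum of 100 reads, and 239 lower (209 higher) with a pseudocount of 5. Exons included more and less were 15 and 32 unthinned, 4 and 12 with at least 50 reads, 0 and 3 at 40 points, 3 more with the smaller inclusion junction, and 12 more with cytoplasmic A375 RNA; another draw gave 7 and 20, with 4 and 15 the same exons. Pairs of a junction and a shared site used more and less were 38 and 44 with at least 50 reads and 10 and 8 at 40 points. Junctions seen in HEK293 alone were 217 at 20 reads and 331 when annotated. None of the 58 called genes or 28 called exons checked reversed against both other lines at once, and uncalled genes were not checked. A change of side against 1 line was not counted as a reversal: PODXL, called lower, was above cytoplasmic A375 RNA. Of 381 values for the 58 genes 38 moved beyond the counting interval, mostly under a pseudocount of 5 or cytoplasmic RNA. Of 132 values for the 28 exons 12 did. The cause was not tested. Exons need 20 reads in each line, so splicing of genes read in 1 line is not covered.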

Other observations

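Unannotated junctions held 87 cases with at least 10 reads in HEK293 and 0 in the other 18 libraries after thinning of the 3 compared. They were chosen after their values were seen. The most read of these outside the X and mitochondrial chromosomes were chr3:15728371-15738587 (plus strand) with 396 thinned reads, chr14:49586849-49636318 (plus strand) with 204, and chr6:20421820-20460807 (minus strand) with 198. Introns at these places would be 10217, 49470 and 38988 nt long. A mitochondrial junction, from 8468 to 8660 on the minus strand, had 363 reads in HEK293 and 0 in the other 16 libraries.

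Of reads in the 3 thinned libraries, 2.54% lay on unannotated junctions in HEK293, 2.49% in A375 and 1.93% in HUES66. HEK293 listed 269946 junctions with any read, A375 264535 and HUES66 244407.

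CDKN2C, which encodes the cell cycle inhibitor p18, had 102 reads in HEK293, 70 in A375 and 0 in HUES66.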
